A study of Mus musculus with 6 samples.

Results

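Heat shock chaperones keep other proteins folded, and BAG3 hands their clients on to autophagy. Transcripts of 10 such genes were followed in cultured mouse hepatic stellate cells, the perisinusoidal mesenchymal cells of the liver. The members were chosen by name as rows of the count table: Hspa1a, Hspa4, Hspa8, Hspb1, Hsph1, Dnajb1, Hsp90aa1, Hsp90ab1, Hspd1 and Bag3. All 10 names had a row among the 13341 genes, and all 10 reached the minimum for testing, 10 normalized counts in 3 or more libraries. Hspa1a reached it through the knock-out libraries alone. The working name of the group is cytosolic, which does not hold for Hspd1, since HSP60 works in the mitochondrial matrix.

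The study compared cells of wild-type genotype with cells of Nbr1 knock-out genotype, with 3 libraries per group. Both groups were labelled as liver stellate cells, grown in DMEM with 10% fetal bovine serum for 4 days. They were left under basal conditions, so no group was heated or otherwise stressed by design. The labels do not say how Nbr1 was disrupted, nor the strain, age and sex of the animals or the number of animals or clones. NBR1, like p62, is a receptor that carries ubiquitin-tagged cargo into autophagosomes. The question behind the series is how these 2 receptors act on the STING pathway in stellate cells in liver cancer. Values are read counts of transcript ends divided by a library factor, and they do not grow with transcript length, so levels of different genes can be set side by side.

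HSP70 proteins bind exposed hydrophobic stretches of unfolded clients under control of ATP. J-domain proteins such as DNAJB1 bring the clients and start the ATP cycle, and HSP110 proteins and BAG proteins, BAG3 among them, release the nucleotide. HSP90 finishes the folding of kinases and receptors, and small heat shock proteins such as HSPB1 hold clients without using ATP. The transcription factor HSF1 switches on the inducible members of each family through heat shock elements, inverted repeats of GAA. In mesenchymal cells, BAG3 with HSP70, HSPB8 and the ubiquitin ligase CHIP, the product of Stub1, sends damaged filamin into autophagy through p62.

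Promoter sequences were taken from RefSeq windows of build GRCm38.p6 that run from 250 bases before to 50 bases after each start site. Of the 10 members, 7 had an entry, and Hsp90aa1, Hsp90ab1 and Hspa8 had none. The 2-unit elements GAANNTTC and TTCNNGAA, which read the same on both strands, were searched, as were the overlapping 3-unit elements that add 1 more inverted GAA unit at the same spacing to either form. These 7 had 10 windows, since some genes have more than 1 start. A 2-unit match was found in 6 of the 10 windows (Hspa1a, Hspb1, Hspd1, Hsph1 and Bag3), against 15.1% of all 32851 windows. A 3-unit match was found in 3 of the 10, of Hspd1 and Hsph1, against 0.603% of all windows, and no match lay in the windows of Dnajb1 and Hspa4. The matches are a description of these letters, not of binding.

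The stretches below are shown as a description. Hspa1a and its neighbouring copy Hspa1b differ in level and hardly differ in upstream sequence. Hspb1 carries 2 matches, and Hspd1 shares its element with Hspe1. Whether any of these sequences sets a transcript level was not tested. Capitals mark the matches, and each sequence reads 5′ to 3′ on the strand of the gene. The first 3 are the 200 bases before the start site.
Hspa1a (chr17:34972157-34972356, minus strand): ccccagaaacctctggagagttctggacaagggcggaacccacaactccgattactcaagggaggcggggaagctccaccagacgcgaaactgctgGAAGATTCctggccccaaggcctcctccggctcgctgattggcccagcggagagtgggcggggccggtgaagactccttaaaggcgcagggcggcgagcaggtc
Hspa1b (chr17:34959239-34959438, minus strand): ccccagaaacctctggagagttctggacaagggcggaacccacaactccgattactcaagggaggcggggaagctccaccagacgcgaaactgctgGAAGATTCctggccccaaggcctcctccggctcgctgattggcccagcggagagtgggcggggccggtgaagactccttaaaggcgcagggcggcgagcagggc
Hspb1 (chr5:135887719-135887918, plus strand): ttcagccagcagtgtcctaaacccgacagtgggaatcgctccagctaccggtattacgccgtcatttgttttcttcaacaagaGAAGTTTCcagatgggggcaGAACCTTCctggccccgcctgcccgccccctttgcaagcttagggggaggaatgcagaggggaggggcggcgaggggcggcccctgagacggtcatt
Hspd1 (chr1:55088053-55088082, minus strand): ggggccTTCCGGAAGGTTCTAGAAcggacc
The Hspa1a and Hspa1b stretches were identical at 199 of 200 bases. The only difference was T199G, counted from 1 at the 5′ end with the Hspa1a base first. The match begins 104 bases before the start site in both genes. In Hspb1 the 2 matches begin 117 and 97 bases before the start. The Hspd1 element begins 144 bases before 1 of the 2 annotated Hspd1 starts. On the other strand it begins 89 bases before the start of Hspe1, which encodes the mitochondrial partner of HSP60, since these start sites face away from each other with 215 bases between them. It also lies within an annotated exon of another Hspd1 transcript (GENCODE M21). In Hsph1 the 3-unit match lay after the start site, as did the single match of Bag3.

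Recovered reads ranged from 1508518 to 2383879 per library. The libraries did not separate by genotype alone. When the group means were taken off and the libraries clustered on what was left, one set held knock-out libraries 1 and 3 with wild-type library 1, called A here, and a second set, called B, the other 3. The labels do not say what the sets stand for, and each member is therefore given by library. For Hspa1a, Dnajb1, Bag3, Hspb1 and Hspd1 the log2 difference inside both sets is added. Such a difference rests on wild-type library 1 alone in set A and on knock-out library 2 alone in set B. Nbr1 itself stood at 204.1, 278 and 288.7 normalized counts in the wild-type libraries and at 203.7, 188.2 and 175.6 in the knock-out libraries (limma log2 change -0.43, SE 0.18, adjusted p = 0.22). Reads from transcript ends cannot show a deletion elsewhere in the gene, so this does not check the labels. Sqstm1, the gene of p62, had 45 reads in wild type and 2377 in knock-out. The group labels were used as given, and the cause of the Sqstm1 difference was not tested.

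Of the cell identity markers, 11 of 16 stellate genes were tested and 6 rose in the knock-out label (Pdgfrb, Lhx2, Hand2, Col1a1, Lum and Acta2). Of all tested genes 4.67% rose. The log2 changes of the 11 were all positive, with a median of 1.35, beside -0.01 over all tested genes. Lum, with 0 reads in wild type and 46 in knock-out, was tested through the knock-out libraries alone. The calls of Pdgfrb, Lhx2 and Hand2 ended when any 1 knock-out library was left out, and those of Lhx2 and Hand2 also for wild-type libraries 2 and 3. Des, Lrat, Reln, Rgs5 and Hgf had no row, where every gene with a row had at least 9 reads over the 6 libraries. Whether they had fewer reads or were left out otherwise is not stated, so these genes do not back the stellate label. The summed level of 5 measured cholangiocyte and epithelial markers, among them Sox9 and Cdh1, was 76.4 to 89.4 in wild type and 576 to 634 in knock-out, while Epcam and Krt18 had no row. Sox9 (15.3 to 478.6) and Cdh1 (6.03 to 83.5) made up this difference in means. The keratin genes of the list did not share it, with 49.4 and 33.7 for Krt19 and 4.39 and 0.287 for Krt8, each lower in every knock-out library, and 7.05 and 9.60 for Krt7. The corresponding sums were 68.1 to 128 and 182 to 209 for 6 smooth muscle markers, 607 to 889 and 883 to 1006 for 5 portal fibroblast markers, and 1802 to 2109 and 1307 to 1580 for 6 mesothelial markers. Hepatocyte, macrophage and endothelial sums stayed at or under 61.7 in every library, and the 6 lymphocyte and neutrophil markers had no row. The part of these differences in the chaperone results was not tested, and in bulk RNA fewer cells of a type cannot be told apart from less RNA per cell.

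Among the 10 members, 1 rose and 0 fell in the knock-out label (limma, adjusted p under 0.05). Of the 10540 tested genes 6.92% were called, 4.67% higher and 2.25% lower. The median log2 change of the 10 was 0.13, beside -0.01 over all tested genes. Among the 9 members with a mean of at least 50 the median was 0.01, beside -0.02 over the genes of that level, and none of these 9 was called, where 5.52% of genes were. Together the 10 genes held 0.777%, 0.567% and 0.553% of the reads in wild type and 0.578%, 0.523% and 0.607% in knock-out, in the order of the library numbers, as in all values that follow. The share was 0.632 ± 0.126% in wild type and 0.569 ± 0.042% in knock-out (SD, n = 3 each), a difference within the spread of the wild-type libraries.

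**Figure D1:**
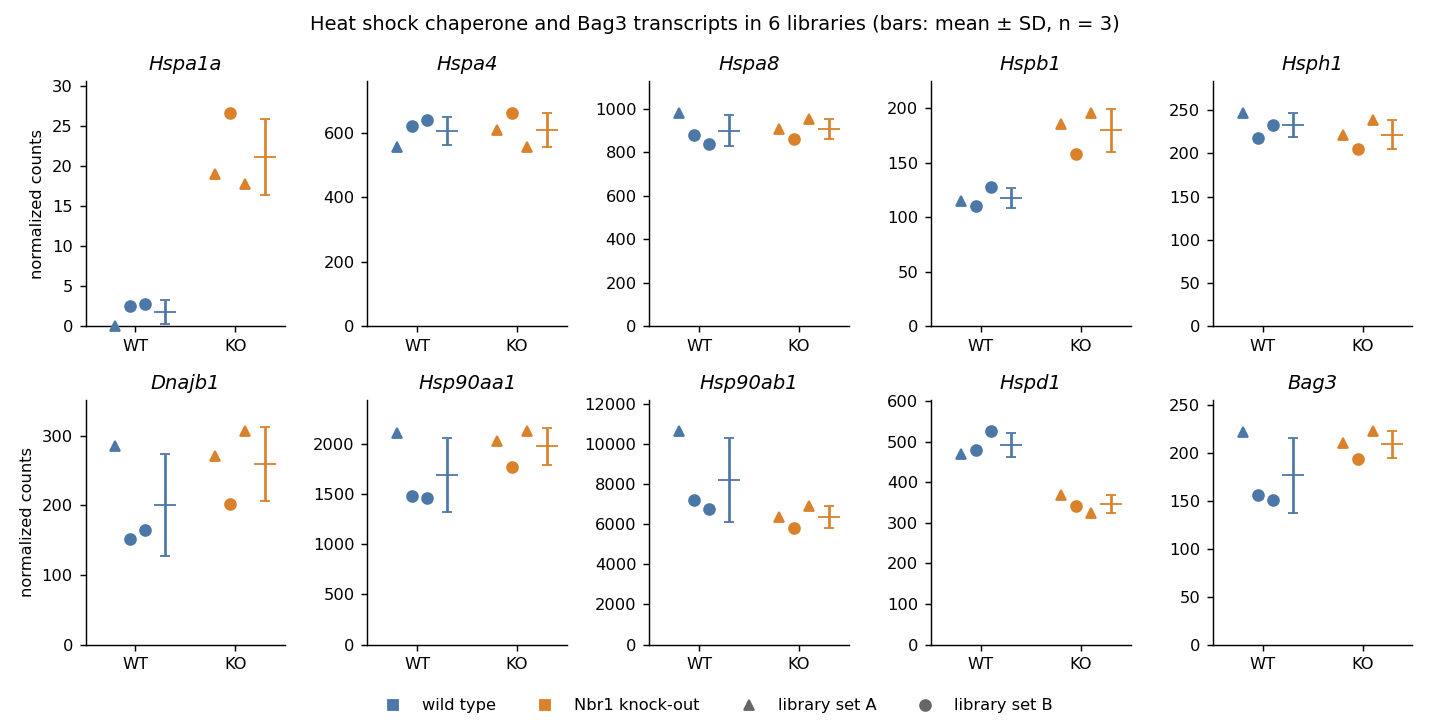
Normalized counts of the 10 members in each library, on linear axes from 0; blue is wild type, orange is Nbr1 knock-out, triangles are library set A, circles set B, and bars give the mean ± SD of 3 libraries. The groups lie apart for Hspa1a, Hspb1 and Hspd1. For Hspa1a this follows from its reaching the minimum for testing through the knock-out libraries alone. Wild-type library 1 stands above the other wild-type libraries for Dnajb1, Hsp90aa1, Hsp90ab1 and Bag3.

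Inducible HSP70 was the member with the call. Hspa1a, which encodes the stress-inducible cytosolic HSP70, stood at 0, 2.52 and 2.72 normalized counts in wild type and at 19.0, 26.6 and 17.8 in knock-out. Every knock-out library lay above every wild-type library, which follows from its reaching the minimum for testing through the knock-out libraries alone. Its mean over all libraries was low, in the bottom 3.02% of tested genes. The knock-out mean was 12.1-fold that of wild type (1.75 ± 1.52 to 21.2 ± 4.8, log2 change 3.21, SE 0.58, adjusted p = 0.0214). The counts behind it were 6 reads in wild type and 67 in knock-out, a ratio per library scale of 10.9 (exact 95% interval 4.76 to 30.8, counting error only). In wild-type library 1 no read was seen, and 3 reads there would have been worth 4.00 normalized counts. The log2 difference was 4.28 inside set A and 2.93 inside set B. The call was lost when wild-type library 2 was left out (adjusted p = 0.0554) and when any 1 of the knock-out libraries was (adjusted p = 0.105, 0.0903 and 0.0851 for libraries 1, 2 and 3), with log2 changes between 3.04 and 3.50. It held in edgeR (adjusted p = 0.0135), where 7.27% of genes were called, and in DESeq2 (adjusted p = 0.000512), where 9.02% were.

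The neighbouring copy of this gene did not separate the groups. Hspa1b, which encodes nearly the same HSP70 protein, stood at 9.34, 79.8 and 78.1 normalized counts in wild type and at 100.5, 184.8 and 54.6 in knock-out. The groups overlapped, with wild-type library 1 far under the rest (log2 change 1.33, SE 0.86, adjusted p = 0.431). With a term for the library set the adjusted p was 0.00354. The sum of both copies was 9.34, 82.3 and 80.8 against 119.5, 211.4 and 72.4, which also overlapped. Hspa1a made up 0%, 3.06% and 3.37% of the reads of the pair in wild type and 15.9%, 12.6% and 24.6% in knock-out. In the last 400 bases of their annotated transcripts the copies share 0 of 326 possible 75-base words with each other or with any other gene. Full-length reads from there are thus not identical between the copies, but near matches and shorter reads were not compared. The labels do not say whether the study's counting told the copies apart.

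The constitutive HSP70 gene varied little between libraries. Hspa8, the housekeeping HSC70 gene, stood at 980.6, 879.3 and 839.8 in wild type and at 908.8, 859.5 and 952.8 in knock-out. All 6 values lay within 1.17-fold of each other (log2 change 0.01, SE 0.12, adjusted p = 0.965). Of the 75-base words at its transcript ends, 68.1% also occur in 8 other annotated genes, so its level depends on how shared reads were counted. Hspa1a was 0%, 0.286% and 0.323% of the Hspa1a and Hspa8 reads in wild type and 2.05%, 3.01% and 1.83% in knock-out. Hspa1a alone thus stayed a small part of the pair in every library. With Hspa1b added, the inducible share was 0.943%, 8.56% and 8.78% in wild type and 11.6%, 19.7% and 7.06% in knock-out. This fuller share overlapped between the genotypes.

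The nucleotide exchange factors of the HSP110 family spanned narrow ranges without a call. Hspa4 stood at 557.7, 620.6 and 641 in wild type and at 610.1, 662.6 and 556.5 in knock-out, with the groups overlapping (log2 change 0.01, SE 0.13, adjusted p = 0.986). Hsph1, which encodes HSP105, stood at 246.8, 218.3 and 233.3 in wild type and at 220.9, 205.4 and 238.5 in knock-out (log2 change -0.07, SE 0.14, adjusted p = 0.817). Both genes stayed within 1.20-fold from the lowest to the highest library. Hspa4 was lower in all 3 libraries of set A than in set B, at most 610.1 against at least 620.6.

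Dnajb1, the main J-domain partner of inducible HSP70, was apart between the library sets and overlapped between the genotypes. The sets were drawn from these same libraries, and 40% of all tested genes were apart between them. It stood at 285.5, 152 and 165.2 in wild type and at 270.7, 202 and 306.1 in knock-out. Wild-type library 1 sat with knock-out libraries 1 and 3, all at or above 270.7, and the other 3 libraries were at or under 202. The log2 change between genotypes was 0.41 (SE 0.28, adjusted p = 0.469). It was 0.01 inside set A and 0.35 inside set B. Without wild-type library 1 it was 0.69 (adjusted p = 0.0439).

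Bag3 showed the same arrangement at a smaller scale. It stood at 221.5, 156.2 and 150.7 normalized counts in wild type and at 210, 193.4 and 221.9 in knock-out. The 3 values of set A lay between 210 and 221.9 whatever the genotype, and those of set B between 150.7 and 193.4. The log2 change between genotypes was 0.26 (SE 0.19, adjusted p = 0.484), with -0.04 inside set A and 0.33 inside set B. Without wild-type library 1 the log2 change was 0.44 (adjusted p = 0.0537). Hspb8 and Stub1, whose products act with BAG3, were arranged likewise. Hspb8 had 230.8, 127.7 and 101.7 in wild type and 243.5, 188.2 and 217.1 in knock-out (adjusted p = 0.338). Stub1 had 577.7, 296.5 and 290.5 against 537.7, 386.8 and 517.4 (adjusted p = 0.533). In both, the libraries of set A were above those of set B, and both passed without wild-type library 1 (adjusted p = 0.0133 and 0.0264). The 17 tested partners of BAG3 did not share 1 arrangement, since 4 had set A above set B and 5 the reverse.

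**Figure D2:**
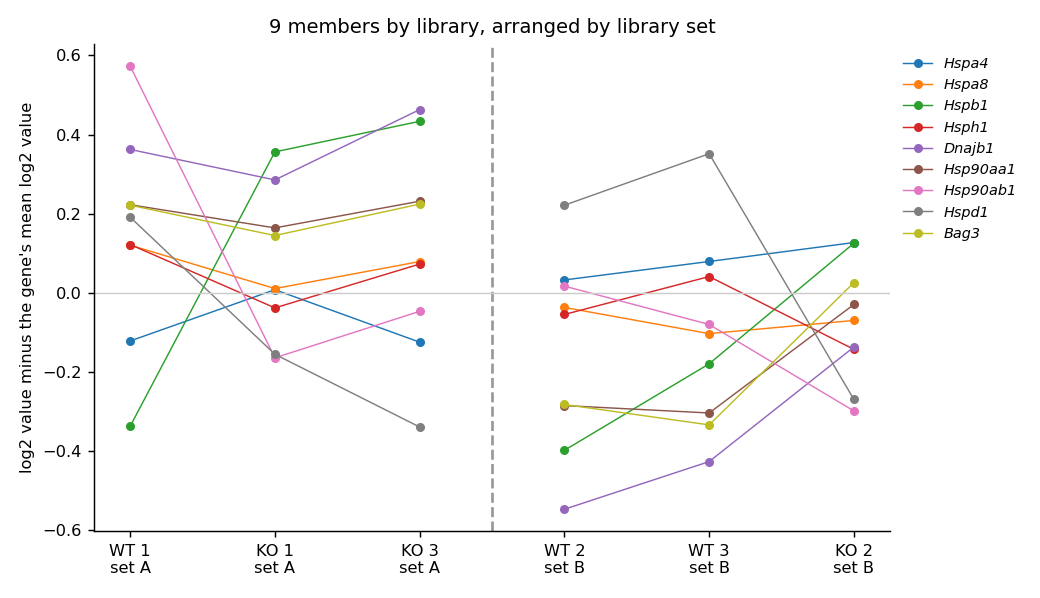
The log2 value of 9 members minus the gene's own mean log2 value, by library, with set A on the left and set B on the right of the dashed line; thin lines only tie the points of 1 gene and imply no order. Dnajb1, Hsp90aa1 and Bag3 lie above their mean in all of set A whatever the genotype. Hspd1, Hspb1, Hsp90ab1 and, by little, Hsph1 part by genotype inside both sets. Hspa1a is left out because it has a value of 0.

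Counted over the members, 4 (Hspa8, Dnajb1, Hsp90aa1 and Bag3) had every set A library above every set B library, and Hspa4 had the reverse. By genotype, Hspa1a and Hspb1 had every knock-out library above every wild-type library and Hspd1 had the reverse. For Hspa1a this follows from its reaching the minimum for testing through the knock-out libraries alone, so it is no separate result. Over all tested genes, 40% had sets that did not overlap (18.5% with A above B and 21.5% with B above A) and 30.1% had genotypes that did not overlap (16.5% with knock-out above and 13.6% below). The sets were drawn from these same libraries, so no test of them is given.

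The 2 cytosolic HSP90 genes had log2 changes of opposite sign, neither of them called, and their ratio separated the genotypes. Hsp90aa1, the stress-inducible isoform, stood at 2115, 1487 and 1468 normalized counts in wild type and at 2030, 1776 and 2128 in knock-out. The groups overlapped through wild-type library 1 (log2 change 0.24, SE 0.18, adjusted p = 0.483). Hsp90ab1, the constitutive isoform and the most abundant member, stood at 10643, 7239 and 6769 in wild type and at 6385, 5817 and 6926 in knock-out. These groups also overlapped (log2 change -0.34, SE 0.19, adjusted p = 0.367), and wild-type library 1 was the highest of all. With a term for the library set the log2 change of Hsp90ab1 was -0.47 (adjusted p = 0.0135) and that of Hsp90aa1 0.12 (adjusted p = 0.383). Without wild-type library 1, Hsp90aa1 passed (log2 change 0.42, adjusted p = 0.0367) and Hsp90ab1 did not (log2 change -0.14, adjusted p = 0.351).

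The ratio is taken inside a library and so does not depend on the library factor. Hsp90aa1 made up 16.6%, 17.0% and 17.8% of the HSP90 pair's reads in wild type and 24.1%, 23.4% and 23.5% in knock-out. The 3 knock-out values lay above the 3 wild-type values, in set A and in set B, with 7630 to 10391 reads behind each. Of single tested genes 30.1% had genotypes that did not overlap, and the same share over gene pairs at large was not counted. The exact 95% intervals were at most 18.6% in wild type and at least 22.5% in knock-out, and they cover counting error only. Group values were 17.1 ± 0.6% and 23.7 ± 0.4% (SD, n = 3 each). Put the other way, there were 4.84 ± 0.21 Hsp90ab1 counts per Hsp90aa1 count in wild type and 3.22 ± 0.07 in knock-out. No p is given, since the pair was chosen among members with earlier results known, and a ratio shows unequal change, not which gene moved. At the transcript ends of Hsp90aa1, 25.6% of the 75-base words also occur in another annotated gene, and 0.797% of those of Hsp90ab1.

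**Figure D3:**
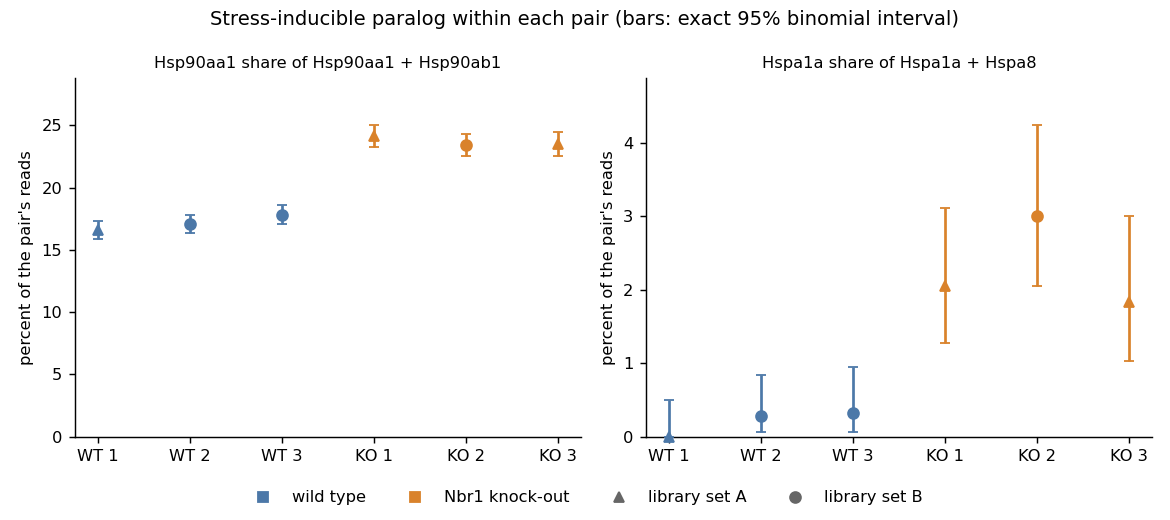
Share of the inducible paralog in the reads of its pair, in percent, for each library; bars are exact 95% binomial intervals, which cover counting error only. Hsp90aa1 holds 16.6 to 17.8% of the HSP90 pair in wild type and 23.4 to 24.1% in knock-out. Hspa1a holds at most 0.323% and at least 1.83% of its pair with Hspa8. Hspa1b, the other inducible copy, is left out of this share, and with it the genotypes overlap.

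Hspb1 encodes the small heat shock protein HSP25 of the mouse, which also caps actin filaments. It stood at 114.7, 110 and 128 in wild type and at 185.6, 158.1 and 195.8 in knock-out. The groups did not overlap, and the mean was 1.53-fold higher in knock-out (117.6 ± 9.3 to 179.8 ± 19.5). The call was missed over all genes (log2 change 0.61, SE 0.16, adjusted p = 0.0738). It was made without wild-type library 1 (adjusted p = 0.0399) and with the set term (adjusted p = 0.0166). The log2 difference was 0.73 inside set A and 0.41 inside set B. The pseudogene Hsp25-ps1 shares 29.9% of the 75-base words at the Hspb1 ends.

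Hspd1, which encodes the mitochondrial chaperonin HSP60, was the member lowest in knock-out relative to wild type. It stood at 469.6, 479.5 and 524.8 in wild type and at 369.3, 341.2 and 325.1 in knock-out. The groups did not overlap, and the mean was 1.42-fold higher in wild type (491.3 ± 29.4 and 345.2 ± 22.4, log2 change -0.51, SE 0.13, adjusted p = 0.0626). DESeq2 called it (adjusted p = 0.028), and edgeR did not (adjusted p = 0.0712). The log2 difference was -0.44 inside set A and -0.55 inside set B, and the adjusted p with the set term was 0.00998. Its neighbour Hspe1, which encodes HSP10 and shares the promoter element printed above, stood at 800.5, 661.8 and 618.3 in wild type and at 627.3, 555.2 and 590.9 in knock-out. There the groups overlapped (log2 change -0.22, SE 0.14, adjusted p = 0.425). The pseudogene Hspd1-ps3 shares 24.2% of the 75-base words at the Hspd1 ends.

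With the set term, 4 members passed (Hspa1a and Hspb1 higher, Hsp90ab1 and Hspd1 lower), where 26.5% of all tested genes did. Without wild-type library 1, 5 passed (Hspa1a, Hspb1, Dnajb1 and Hsp90aa1 higher and Hspd1 lower), where 21.1% of all tested genes did.

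**Figure D4:**
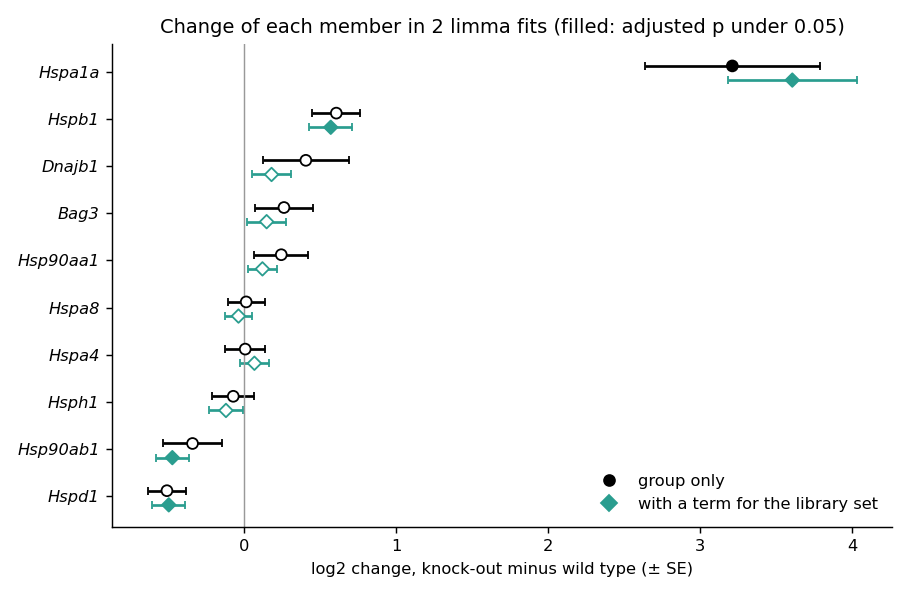
The log2 change of each member, knock-out minus wild type, with its standard error, in the limma fit by group alone (black circles) and with a term for the library set (green diamonds); filled symbols have an adjusted p under 0.05. Hspa1a is filled in both fits, and Hspb1, Hsp90ab1 and Hspd1 only with the set term.

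The other genes of the folding machinery were read from 10 lists, of which 103 genes beside the members were tested, some of them in 2 or more lists. Of these, 4 rose and 3 fell, or 6.80%, near the 6.92% of all tested genes. Among 5 other small heat shock protein genes, Hspb7 rose and 0 fell. Hspb7, a small heat shock protein of striated muscle, had 2 reads in wild type and 55 in knock-out (ratio 26.9, exact 95% interval 7.10 to 228 for counting error only, adjusted p = 0.00451). It reached the minimum for testing through the knock-out libraries alone. The other 4 of that list had positive log2 changes, among them Cryab, the alpha B-crystallin gene. It stood at 106.7, 246.1 and 241.5 in wild type and at 316.8, 369.6 and 295.5 in knock-out (log2 change 0.81, adjusted p = 0.211). Hspb2 stood at 5.32 ± 4.42 and 19.2 ± 4.4 (adjusted p = 0.11).

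Of 16 genes for HSP90 relatives and co-chaperones, 1 fell and 0 rose, with a median log2 change of -0.30. That gene was Ppid, which encodes the HSP90-binding cyclophilin 40. It stood at 708.4, 460.2 and 438.5 in wild type and at 231.7, 214 and 256.3 in knock-out (log2 change -1.16, SE 0.21, adjusted p = 0.0226). Leaving out any 1 knock-out library, or wild-type library 2, ended its call (adjusted p up to 0.119).

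Of 14 genes of the cytosolic chaperonin TRiC and of prefoldin, which fold actin and tubulin, the prefoldin subunit gene Pfdn4 fell and 0 rose. Pfdn4 stood at 173.4, 177.2 and 179.8 in wild type and at 76.9, 91.1 and 89 in knock-out (log2 change -1.04, SE 0.15, adjusted p = 0.0098). The 3 wild-type values lay close together and above all the knock-out values. In this list 10 of 14 log2 changes were negative, with a median of -0.30. Leaving out knock-out library 1 or 3, or else wild-type library 2 or 3, ended the call of Pfdn4 (adjusted p up to 0.0764).

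Among 22 heat shock response genes, Ubb rose and Cacybp fell. Ubb, a polyubiquitin gene, stood at 36, 73.9 and 75.4 in wild type and at 1721, 1330 and 1823 in knock-out (log2 change 4.76, SE 0.31, adjusted p = 0.00064). Cacybp, which encodes a Siah-binding protein, stood at 598.4 ± 78.1 and 369.8 ± 40.9 (adjusted p = 0.0492; lost when any library but wild-type library 1 was left out, adjusted p up to 0.201). The median of the list was 0.04, with 11 changes of each sign.

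Among 17 tested partners of BAG3 in chaperone-assisted autophagy, Sqstm1 and Synpo rose and 0 fell. Sqstm1, which encodes p62, stood at 24, 10.9 and 12.7 in wild type and at 817.4, 644.6 and 859.1 in knock-out (adjusted p = 0.000337). The knock-out mean was 48.7-fold that of wild type (log2 change 5.59, SE 0.30), so p62 transcripts were scarce in the wild-type libraries. Differences between the labelled groups therefore go with a difference in Sqstm1 as well as with the Nbr1 label. Synpo, which encodes the actin-bound BAG3 ligand synaptopodin, stood at 146.8, 72.2 and 65.4 against 275.2, 216.6 and 333.4 (log2 change 1.60, SE 0.34, adjusted p = 0.0378; lost in the same 5 fits, adjusted p up to 0.166).

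The other 5 lists had 0 calls in limma, edgeR and DESeq2. Of their 45 genes, 5 had an unadjusted limma p under 0.05, beside 2379 of all 10540 tested genes. These lists held 8 genes of the HSP70 family, 14 J-domain genes, 9 BAG and HSP70 cofactors, 11 mitochondrial chaperones and 6 heat shock factors and regulators. Hsf1, the heat shock factor gene, stood at 14.7, 78.9 and 74.5 in wild type and at 38.9, 54.1 and 32 in knock-out, with every library of set A under every library of set B (adjusted p = 0.938). Hsf2, a second heat shock factor gene, stood at 144.1, 144.4 and 157.1 in wild type and at 115, 111.7 and 96.1 in knock-out, without overlap (log2 change -0.46, SE 0.15, adjusted p = 0.131). With the set term, 5 of the 45 genes were higher (Hspa1b, Hspa9, Dnaja3, Dnaja4 and Sil1) and 5 lower (Hspa5, Hsf2, Bag4, St13 and Ep300). That fit called 26.5% of all tested genes. In the lists with a limma call, it called 7 of 16 HSP90 relatives and co-chaperones lower and 1 higher. Of 14 TRiC and prefoldin genes 7 were lower and 0 higher, and of 5 small heat shock protein genes 3 were higher and 0 lower. Heat shock response genes had 5 higher and 4 lower of 22, and BAG3 partners 4 higher and 2 lower of 17. Dnaja4 reached the minimum for testing through the knock-out libraries alone.

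**Figure D5:**
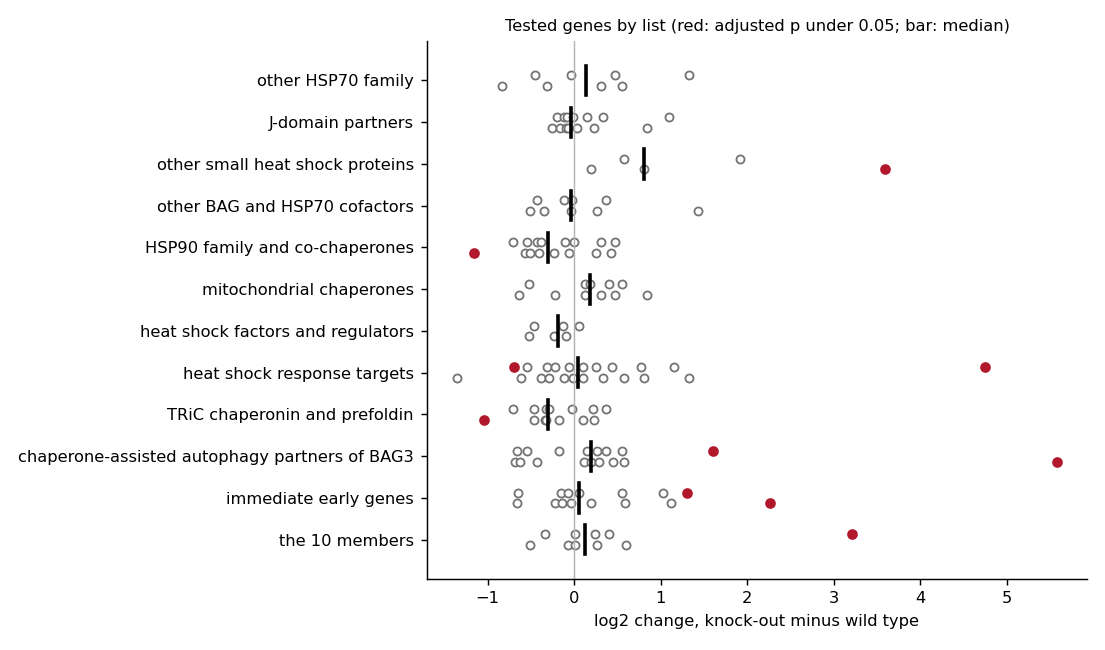
The log2 change of every tested gene in the 10 folding lists, the immediate early genes and the 10 members, knock-out minus wild type; red points have an adjusted p under 0.05 and black bars are medians. Most points are open in every list, and the red points at the far right are Ubb and Sqstm1.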

How the data were processed

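Poly(A) transcript ends of 6 libraries, 3 wild type and 3 Nbr1 knock-out, were read after QuantSeq 3' forward preparation from 200 ng of RNA, single-end at 75 nucleotides, per the labels' protocols. The deposited table holds a normalized count signal, counts divided by 1 factor per library, per the file headers and values. DESeq2 (no version) and build GRCm39 are named in the submitters' processing notes. Aligner, annotation, strand use and use of molecular identifiers are not given in the sources used here. In every library 100% of values were whole multiples of 1 read's worth (tolerance 0.01), so reads were recovered. Replicates are called biological in the design text, but nothing says they came from separate animals, so p-values measure the spread between these cultures or preparations.

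The 10540 genes that reached 10 in 3 or more libraries were fitted on log2(value + 1) by limma 3.58.1 (R 4.3.3) with a mean-variance trend, two-sided, with Benjamini-Hochberg adjustment over all of them. Adjusted p values come from this fit unless another is named. Folds are ratios of group means, and log2(value + 1) understates changes of low genes. Alternatives were edgeR 4.0.16 and DESeq2 1.42.0 on recovered reads, other pseudocounts, filters and scalings, a replicate block and each library left out. The library set term was chosen after seeing the data. Transcript ends and exons came from GENCODE M21 (GRCm38), promoters from RefSeq GRCm38.p6, neither the build of the counts. Named genes are the members, Nbr1, partners of members, list genes past the threshold (at most 4 per list) and those needed for small counts. Members and lists were chosen with earlier results of these data known. No 2 replicates matched within sampling noise: the chi-square over its degrees of freedom was 1.48 or more.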

Additional observations from a re-analysis of the deposited data

How the results depend on the processing

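The count of changed genes was 729, and 1 of the 10 members was called. A mean of at least 50 gave 380 genes and 0 members, because it removed Hspa1a from the test. DESeq2 called 2 members, the set term 2791 genes and 4 members. Leaving out 1 library gave 200 to 2228 genes and 0 to 5 members. Pseudocounts of 0.5 or 5, no filter, TMM factors, quantile normalization, edgeR and limma without a trend moved neither count by over 1.5 times. The replicate number as a block gave 476 genes and again 1 member. The numbers pair the samples only in part, since deviations from the group means correlated at 0.45 and 0.70 for numbers 1 and 2 and at -0.62 for number 3, so a gene lost under this block is not read as weaker. Over the members' log2 changes, 151 of 169 alternatives kept direction and side of the threshold, 8 were newly called, 4 lost the call of Hspa1a and 6 turned sign. The sign turns were in Hspa4 (-0.055 to 0.071 without 1 library) and Hspa8 (-0.035 to 0.077 without 1 library, -0.038 with the set term), both near 0 throughout. The cause of these shifts was not tested. Among the members, Hspa1a has the fewest reads, 6 in wild type, so its fold is the least precise by counting error.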

Other observations

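Immediate early genes, which answer stress and serum within minutes and are often read beside heat shock genes, were read as a list apart from the folding genes, with 15 tested. Klf2 and Klf4, a pair of Krüppel-like transcription factor genes, rose in the knock-out label and 0 fell. That is 13.3% of the tested genes of the list, beside 6.92% of all tested genes. Klf2 stood at 57.4, 38.6 and 39 normalized counts in wild type and at 228.1, 195.1 and 230.2 in knock-out (log2 change 2.27, SE 0.21, limma adjusted p = 0.00186), and its call held in all 6 fits that left out 1 library. Klf4 stood at 282.8, 159.6 and 170.7 against 477.1, 448.6 and 553 (log2 change 1.31, SE 0.24, adjusted p = 0.0233), and its call was kept only without wild-type library 1 (adjusted p up to 0.117 in the other 5 fits). The median log2 change of the list was 0.05, with 8 positive and 7 negative values, so the list did not move as 1.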
